A study of Mus musculus with 8 samples.

Results

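The genes described here encode the enzymes that make and use arginine and that turn ornithine into the polyamines, in mouse embryonic stem (ES) cells before and after treatment with retinoic acid (RA). The members are the probes of the array that carry 1 of 9 symbols for core steps of this pathway. The array holds 8 of the 9 symbols on 15 probes, out of 36406 gene names on 55681 probes, and 6 of them on 13 probes are described here, namely *Ass1*, *Asl*, *Oat*, *Odc1*, *Srm* and *Sms*. No probe is named *Amd1*. The symbols were selected on the difference between RA and untreated signal in these same arrays, which was already known, so the values of these genes are given as a description and carry no test.

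E14Tg2A.4 is a feeder-independent line of mouse ES cells, and RA is a derivative of vitamin A that drives such cells out of self-renewal. One group of 4 biological replicates was left untreated, and the other group of 4 received RA for 72 h in medium from which leukemia inhibitory factor, the cytokine that sustains self-renewal, had been left out. The groups therefore differ in RA and in this factor together, and their effects cannot be told apart. Total RNA of each culture was labelled with a single dye and hybridized to an Agilent SurePrint G3 mouse expression array, where a brighter spot means more of the transcript it binds.

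Arginine is made from citrulline and aspartate by argininosuccinate synthase and argininosuccinate lyase, and its hydrolysis gives urea and ornithine. Ornithine is either passed on by a transaminase towards glutamate and proline, or decarboxylated to putrescine, which spermidine synthase and spermine synthase lengthen with groups taken from decarboxylated S-adenosylmethionine. The polyamines that result bind RNA and DNA, are needed for growth, and are held within narrow limits by antizyme, by acetylation and by export, and mouse ES cells are known to depend on high levels of them.

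Values below are log2 intensities relative to the 75th percentile of the spots on the same array, so that 0 is the brightness of that percentile, and a difference of 1 is a doubling. Probes bind with different strength, so a brighter probe of one gene is not read as more transcript than a dimmer probe of another, and a gene is represented by its brightest probe. The marker sums below add the signals of different probes, and a share of such a sum is a share of signal and not of transcript. Of 59305 spots per array, 33629 to 37175 exceeded background clearly in untreated cells and 35034 to 35780 did after RA, and none was saturated. The median of all probes fell by 0.28 between the conditions on this scale and by 0.0026 when the arrays were quantile normalized. Changes below include that shift unless stated, and for some small decreases the value against it is also given. As a check of the labels, all 9 pluripotency markers were measured above background in every untreated culture, and their summed signal fell from between 468 and 661 times the 75th percentile to between 45.7 and 122. The summed signal of 8 genes that respond to RA rose from between 7.95 and 13.3 to between 111 and 210. In bulk RNA, fewer cells of a type and less RNA per cell cannot be told apart.

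The sequences below are probes of 60 bases as deposited, written 5′ to 3′ in the sense of the transcript, and are shown because the results for these genes are read from such stretches. For *Odc1* and *Srm* a dimmer probe is shown, with a log2 fold change of -0.23 and -1.73. The *Asl* probe spans the positions from 130487964 to 130488549 of chromosome 5 on mm9, more than its own length, so that it crosses an exon junction and reads spliced RNA.
Asl: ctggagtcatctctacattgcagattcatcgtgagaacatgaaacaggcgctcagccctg
Odc1: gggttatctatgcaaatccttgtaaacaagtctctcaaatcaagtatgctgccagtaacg
Srm: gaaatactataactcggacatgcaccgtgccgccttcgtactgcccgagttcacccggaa

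Of the 6 genes, 2 were higher in all 4 RA arrays than in any untreated array (*Oat* and *Asl*), 3 were lower in all 4 (*Ass1*, *Srm* and *Sms*), and *Odc1* overlapped. Among all gene names 15.3% were higher without overlap and 25.3% were lower, and among those well above background on at least 1 array 20.1% and 32.2% were. The median log2 fold change of the 6 genes was -0.42, against -0.28 over all gene names. *Oat*, which takes ornithine to glutamate semialdehyde, was among the higher genes, and the synthases of spermidine and spermine, *Srm* and *Sms*, were among the lower.

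**Figure D1:**
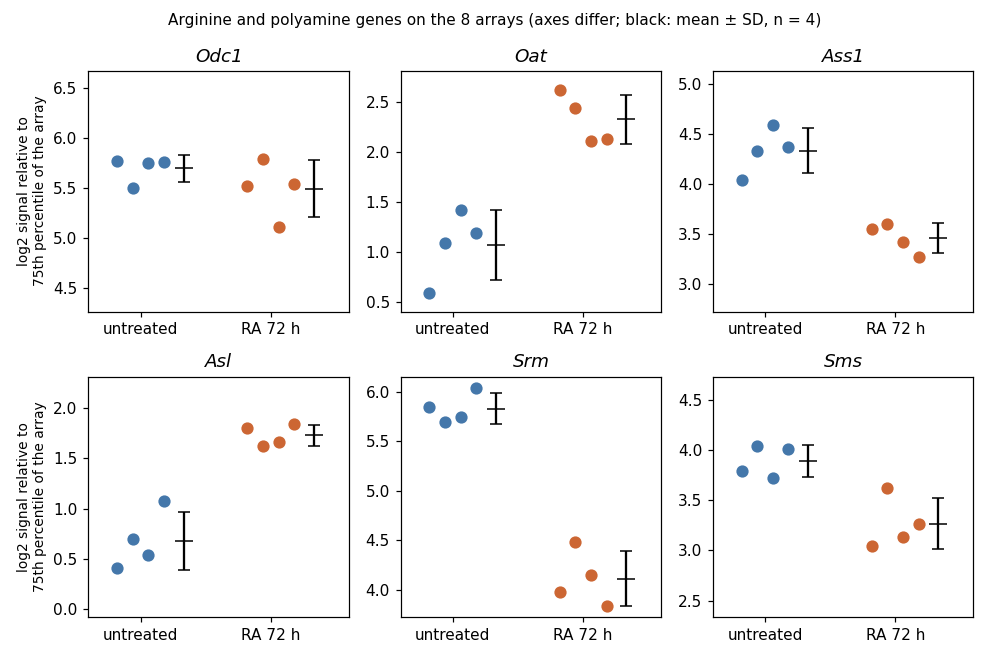
Log2 signal relative to the 75th percentile of the array for the 6 genes, 1 panel per gene with its own vertical axis. Circles are single arrays, all well above background, and black bars are the mean ± SD of 4 arrays. The groups are apart for *Oat*, *Asl*, *Ass1*, *Srm* and *Sms* and overlap for *Odc1*.

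Of the 2 steps that make arginine, the first was lower after RA and the second was higher. *Ass1*, argininosuccinate synthase, is measured by a probe for NM_007494 at chr2:31376068-31376127 on mm9. It read 4.04, 4.33, 4.59 and 4.37 in untreated replicates 1 to 4 and 3.55, 3.60, 3.42 and 3.27 in RA replicates 1 to 4. Every untreated array lay above every RA array, and untreated 1 and RA 2 came closest to each other. The means were 4.33 ± 0.23 and 3.46 ± 0.15 (SD, n = 4 each), a log2 fold change of -0.87 (SE 0.16) or 1.83-fold lower. Its dimmer probe, which lies next to it, gave -0.92 (SE 0.17), again without overlap. Against the shift of all probes the decrease was -0.59.

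*Asl*, argininosuccinate lyase, which releases arginine and fumarate, was higher. The probe for NM_133768 read 0.41, 0.70, 0.54 and 1.08 in untreated cells and 1.80, 1.63, 1.66 and 1.84 after RA. The RA arrays lay close together, and untreated 4 was the nearest to them. The mean went from 0.68 ± 0.29 to 1.73 ± 0.10 (SD, n = 4), a log2 fold change of 1.05 (SE 0.17) or 2.07-fold higher. The 2 slides of the experiment each held 2 arrays of each group, and the increase was 1.35 on the first and 0.76 on the second.

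Ornithine that is not used for polyamines is taken up by *Oat*, the mitochondrial ornithine aminotransferase that leads to glutamate semialdehyde. The probe for NM_016978 at chr7:139749726-139749785 on the minus strand read 0.60, 1.09, 1.43 and 1.19 in untreated cells and 2.62, 2.44, 2.11 and 2.13 after RA. No untreated array reached the lowest RA array. The mean went from 1.08 ± 0.35 to 2.33 ± 0.25 (SD, n = 4), a log2 fold change of 1.25 (SE 0.21) or 2.38-fold higher, and it was 1.36 on the first slide and 1.14 on the second.

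The first step of polyamine synthesis did not separate the groups. *Odc1*, ornithine decarboxylase, which makes putrescine and turns over rapidly as a protein, was bright on all arrays. Its brightest probe read 5.77, 5.50, 5.75 and 5.76 in untreated cells and 5.52, 5.79, 5.11 and 5.54 after RA. The highest reading of all was RA 2 and the lowest RA 3, so the RA arrays enclosed the untreated ones. The log2 fold change was -0.20 (SE 0.17), or 0.08 relative to the shift of all probes, and with quantile normalization it was 0.04. The other 3 probes gave -0.07, -0.23 and 0.12, all with overlap, and *Odc1* was the only one of the 6 genes whose probes differed in sign.

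The aminopropyl transferases that follow were both lower. *Srm*, spermidine synthase, which turns putrescine into spermidine, is measured at chr4:147968433-147968492 for NM_009272. It read 5.85, 5.69, 5.75 and 6.05 in untreated cells and 3.97, 4.49, 4.15 and 3.84 after RA. Each group was tight, and the gap between them was wider than either. The mean went from 5.83 ± 0.15 to 4.11 ± 0.28 (SD, n = 4), a log2 fold change of -1.72 (SE 0.18) or 3.29-fold lower. The second probe, whose sequence is shown above, gave -1.73 (SE 0.18). Of 24146 genes compared over the 8 arrays, each centred on its own mean, the one that ran most closely with *Srm* was *Dohh*, deoxyhypusine hydroxylase, at a distance of 0.38 and a log2 fold change of -1.62, with *Rif1*, *Tiam1*, *Zbp1* and *Stat6* at almost the same distance.

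*Sms*, the X-linked spermine synthase, differed less. The probe for NM_009214 at chrX:153883630-153883689 on the minus strand read 3.79, 4.04, 3.73 and 4.02 in untreated cells and 3.04, 3.62, 3.14 and 3.27 after RA. RA 2 came within reach of untreated 3, the lowest of its group, but did not overlap it. The mean went from 3.89 ± 0.16 to 3.27 ± 0.25 (SD, n = 4), a log2 fold change of -0.63 (SE 0.17) or -0.35 relative to the shift of all probes. The other 2 probes gave -0.63, with overlap, and -0.55, without, and under quantile normalization the groups of the brightest probe overlapped at a log2 fold change of -0.48.

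**Figure D2:**
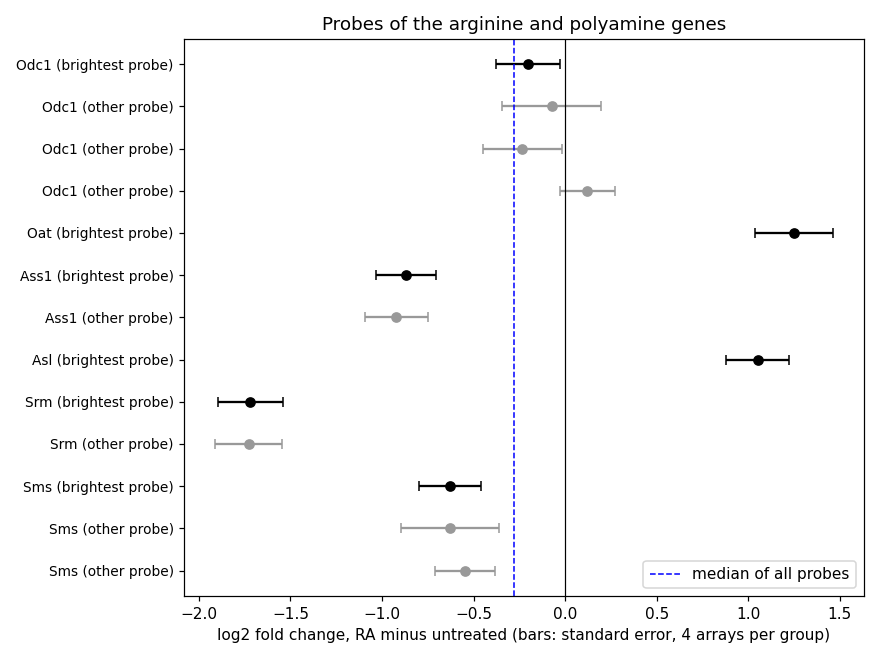
Log2 fold change (RA minus untreated) of the 13 probes of the 6 genes, with bars for the standard error from 4 arrays per group. Black marks the probe that represents the gene, and the dashed line is the median of all probes at -0.28. The probes of *Ass1*, *Srm* and *Sms* lie together on the left, and those of *Odc1* lie on both sides of 0.

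S-adenosylmethionine decarboxylase supplies the groups that *Srm* and *Sms* transfer. No value can be given for *Amd1*. A close copy of it, *Amd2*, is on the array with 3 probes, and near-identical transcripts may bind to the same probes, so that its values are uncertain. The 3 probes gave log2 fold changes of -0.50, -0.30 and -0.39, or -0.22, -0.02 and -0.11 against the shift of all probes. With adjusted p = 0.0501, 0.138 and 0.0476 from limma, none of the probes passed both the p and the 1.5-fold limit. Without untreated 3 the first of them passed, at -0.62 (adjusted p = 0.0124, where all alternatives ran from 0.0111 to 1.00), and with quantile normalization it was at -0.25.

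Markers of other cell types were read on the same arrays. Of 9 macrophage markers *Ptprc*, *Lyz2* and *Retnla* were well above background on no array, and *Cd68*, *Itgam*, *Csf1r*, *Mrc1* and *Chi3l3* were on every array. By limma *Mrc1* fell by 1.38 (adjusted p = 0.0470) and *Chi3l3* by 2.38 (adjusted p = 0.000704), and the other 7 did not pass. The summed signal of the list, mostly *Itgam*, was 4.39 to 11.0 in untreated cells and 3.16 to 4.75 after RA. Of 8 markers of hepatocytes and visceral endoderm *Alb*, *Apoa1* and *Otc* were well above background on no array, and the sum went from between 0.313 and 0.588 to between 1.63 and 7.39. *Afp* and *Ttr*, both made by visceral endoderm, rose and together gave 72.1% to 91.8% of that sum after RA, while *Cps1* of the same list fell. The 7 fibroblast and feeder markers went from a sum of 1.32 to 2.26 up to 92.6 to 234, with *Fap* well above background nowhere. *Acta2*, smooth muscle actin, gave 70.3% to 83.6% of that sum after RA, 5 of the 7 rose, and *Thy1* did not pass, at -0.08 (adjusted p = 0.882). The 7 markers of primitive endoderm, all of which rose, went from a sum of 1.39 to 2.48 up to 22.7 to 38.1, of which *Foxa2* gave 58.3% to 70.8% after RA. The neural list, with 6 of its 7 genes on the array, summed to between 6.07 and 9.66 before and between 10.4 and 11.8 after RA, when *Nes* gave 79.6% to 84.3% of it, and *Tubb3* of that list fell. The part of such cells in the differences of the pathway genes was not tested.

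RefSeq promoter sequences (assembly GRCm38.p6) were matched to 4 of the 6 genes in 5 windows, each taken as the 250 bases before the start site. Searched on both strands were CACGTG, the E-box that Myc and Max bind, GGGCGG, the GC box of Sp1, TATAAA, the TATA box, and the direct repeats of AGGTCA named DR2 and DR5 that RA receptors bind. CACGTG was found in 6.02% of the 32851 windows of the table, GGGCGG in 32.7%, TATAAA in 12.4% and each direct repeat in 0.00913%. The windows of *Ass1* and *Sms*, both lower after RA, and of *Odc1*, whose groups overlapped, are shown with the matches in capitals, a match on the opposite strand appearing as CCGCCC.
Ass1, chr2:31470020-31470269, plus strand: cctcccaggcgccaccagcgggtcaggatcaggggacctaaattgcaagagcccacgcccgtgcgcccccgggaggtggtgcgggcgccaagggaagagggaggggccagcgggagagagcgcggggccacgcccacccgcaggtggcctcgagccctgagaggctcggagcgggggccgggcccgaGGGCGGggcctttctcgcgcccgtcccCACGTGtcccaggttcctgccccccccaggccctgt
Sms, chrX:157492288-157492537, minus strand: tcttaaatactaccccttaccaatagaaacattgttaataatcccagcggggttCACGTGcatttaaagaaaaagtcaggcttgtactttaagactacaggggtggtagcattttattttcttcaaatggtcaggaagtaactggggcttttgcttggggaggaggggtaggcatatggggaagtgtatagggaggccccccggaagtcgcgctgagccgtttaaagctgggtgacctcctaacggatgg
Odc1, chr12:17544623-17544872, plus strand: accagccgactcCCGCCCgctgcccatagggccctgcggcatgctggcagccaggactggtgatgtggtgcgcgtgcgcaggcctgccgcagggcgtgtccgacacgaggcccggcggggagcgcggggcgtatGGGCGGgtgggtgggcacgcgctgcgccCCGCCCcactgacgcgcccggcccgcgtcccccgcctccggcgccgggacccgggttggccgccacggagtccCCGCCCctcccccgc

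*Ass1* held 1 CACGTG, 36 bases before the start, and 1 GGGCGG. *Sms* held 1 CACGTG, 196 bases before one of its 2 annotated starts, and its other window held 4 GGGCGG and no CACGTG. *Odc1* held 4 GGGCGG, and the window of *Oat* held none of the 5 motifs. A match describes these letters only, and binding was not measured.

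Neighbouring genes were taken from 6 lists of 70 symbols, of which 68 are on the array and 64 were well above background on at least 1 array. They were tested with limma, with Benjamini-Hochberg adjustment over all probes, and called at an adjusted p under 0.05 and a change above 1.5-fold. Of the 64 genes 10 rose (15.6%), 27 fell (42.2%) and 27 did not pass. Among the gene names well above background on at least 1 array, 18.3% rose and 27.9% fell. The median log2 fold change of the 64 genes was -0.43, against -0.27 over the gene names measured in the same way. These shares were not tested against those of all genes.

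**Figure D3:**
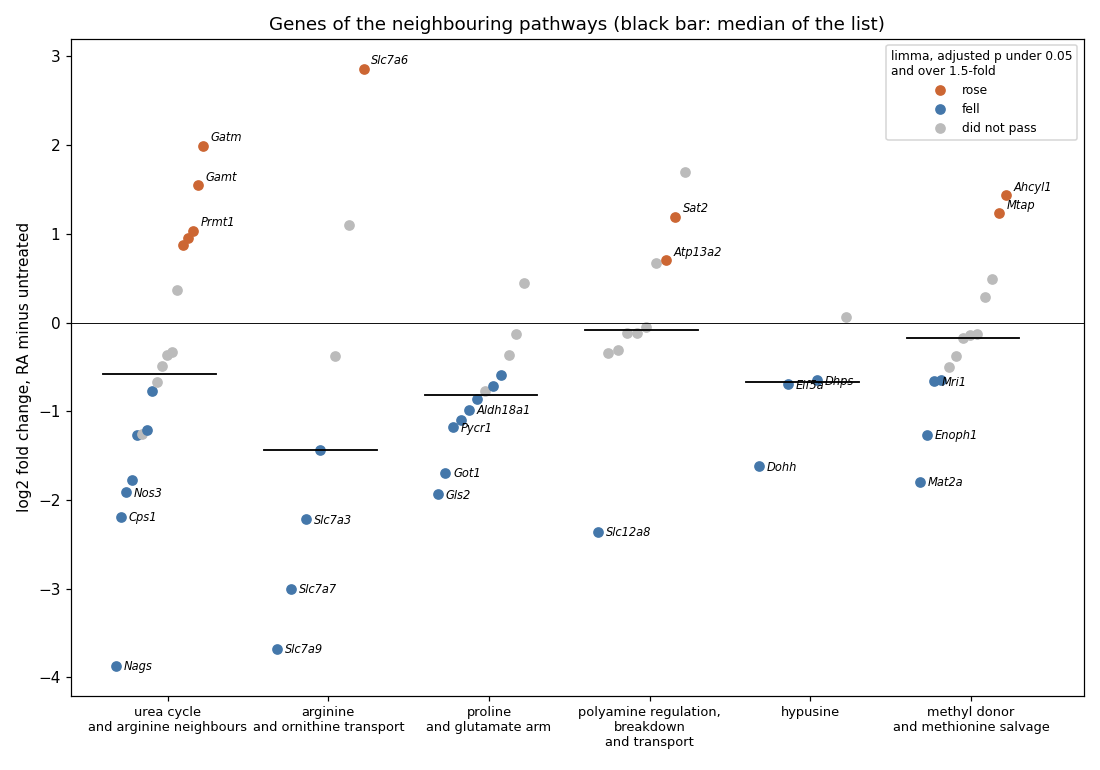
Log2 fold change (RA minus untreated) of the neighbouring genes well above background on at least 1 array, by list, with black bars for the list's median. Orange genes rose and blue genes fell by limma at an adjusted p under 0.05 and over 1.5-fold, and grey genes did not pass. The proline and glutamate list lies mostly below 0 (8 of 12 fell, 5 with quantile normalization), whereas the polyamine regulation list lies around it (7 of 10 did not pass).

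Around arginine and the urea cycle 5 of 18 genes rose, 7 fell and 6 did not pass. *Gatm* and *Gamt*, which make creatine from arginine, rose by 2.00 (SE 0.45, adjusted p = 0.00722) and 1.55 (SE 0.24, adjusted p = 0.00107). For *Gatm* the value was 1.05 with normexp background correction and 75th percentile scaling, and 1.23 in the authors' processed values. *Ddah1* and *Ddah2*, which break down methylated arginine, also passed. With limma's treat, which tests against a change of 1.5-fold, *Ddah1*, *Ddah2* and *Prmt1* did not pass. *Prmt1*, the main arginine methyltransferase, rose by 1.04 (adjusted p = 0.0448). With the replicate number as a block *Prmt1* no longer passed, at an adjusted p = 0.0510 where all alternatives ran from 0.0110 to 0.404. Untreated 2 alone was low for *Prmt1*, at 4.40 where the other untreated arrays read 5.87 to 6.08, and without it the increase was 0.65. Without untreated 1, or without any 1 of the RA arrays, *Prmt1* did not pass, at 1.00 to 1.14.

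The mitochondrial entry of the urea cycle was measured in untreated cells only. *Nags*, which makes the activator of carbamoyl phosphate synthetase, and *Cps1*, that synthetase, were well above background on 4 of 4 untreated and 0 of 4 RA arrays. The bounds set the mean in untreated cells against a floor averaged over the RA arrays. The floor of an array was the dimmest signal still called well above background there, and a probe that read brighter than that kept its reading. By this measure *Nags* was at least 4.45-fold lower after RA and *Cps1* at least 3.09-fold lower, and no test was run on these bounds. The limma fit used the readings without the floor, and gave log2 fold changes of -3.87 (adjusted p = 1.8e-05) and -2.19 (adjusted p = 0.00361). Those 2 results rest on RA readings that were not well above background. In the authors' processed values the log2 fold changes were -0.87 and -0.46, the latter under the 1.5-fold limit. *Otc*, which joins ornithine and carbamoyl phosphate in the liver cycle, was well above background on no array. Of the nitric oxide synthases, which draw on the same arginine, *Nos3* fell by 1.91 (SE 0.17, adjusted p = 4.95e-05), and *Nos2*, the inducible form, had a log2 fold change of -0.33 (adjusted p = 0.238). *Nos1*, the neuronal form, fell by 1.27 (SE 0.20, adjusted p = 0.00119), or by 0.78 with normexp background correction and quantile normalization. The value for *Nos2* was -0.19 with quantile normalization and -0.12 in the authors' processed values, and it was -0.51 without untreated 2 and -0.22 without untreated 3.

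Of 7 arginine and ornithine carriers, 4 fell, 1 rose and 2 did not pass. *Slc7a2* was well above background on 0 of 4 untreated and 2 of 4 RA arrays, with a log2 fold change of 1.09 (adjusted p = 0.0513). It passed with quantile normalization, at 1.57, and with the slide or the replicate number as a block. With normexp background correction and 75th percentile scaling it was at -0.01, and in the authors' processed values at 0.22. *Slc7a9*, the light chain of a carrier of cystine and basic amino acids, fell by 3.68 (SE 0.26), *Slc7a7* by 3.00 (SE 0.28) and *Slc7a3*, a cationic amino acid transporter, by 2.22 (SE 0.30), with adjusted p = 1.56e-05, 5.88e-05 and 0.000437. In the authors' processed values the decrease of *Slc7a9* was -2.19. *Slc7a6*, which like *Slc7a7* pairs with the heavy chain Slc3a2 to exchange arginine for neutral amino acids, rose by 2.86 (SE 0.25, adjusted p = 4.66e-05). The gene of that heavy chain, *Slc3a2*, fell by 1.43 (SE 0.21, adjusted p = 0.000676). *Slc7a1*, the general arginine carrier, had a log2 fold change of -0.37 (adjusted p = 0.193), which was -0.20 with quantile normalization, -0.21 in the authors' processed values and -0.22 without RA 1.

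Of 12 genes of proline and glutamate metabolism, among them enzymes that handle glutamine, aspartate and asparagine, 8 fell, 0 rose and 4 did not pass. With quantile normalization 5 of the 12 fell, and *Aldh4a1*, *Asns* and *Prodh2* no longer passed, at -0.45, -0.46 and -0.54. *Aldh18a1*, which makes the glutamate semialdehyde that *Oat* also yields, fell by 0.98 (SE 0.22, adjusted p = 0.00695), and *Pycr1*, which completes proline, fell by 1.18 (SE 0.21, adjusted p = 0.00204). The dimmer *Pycr1* probe gave -0.48 (adjusted p = 0.156), with overlap, and did not pass. Neither gene passed with treat, at an adjusted p = 0.213 for *Aldh18a1* (0.000879 to 0.213 over all alternatives) and 0.0542 for *Pycr1* (0.000106 to 0.0542). *Got1*, the cytosolic aspartate aminotransferase, fell by 1.69 (SE 0.19, adjusted p = 0.000182), and *Gls2* fell by 1.94 (SE 0.17, adjusted p = 4.93e-05).

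Of 10 genes that regulate, break down or carry polyamines, 2 rose, 1 fell and 7 did not pass. *Oaz1*, the antizyme that sends ornithine decarboxylase to the proteasome, had a log2 fold change of -0.05 (adjusted p = 0.829), a sign that turned to 0.22 with quantile normalization. *Azin1*, the antizyme inhibitor, had -0.31 (adjusted p = 0.135), and *Smox*, spermine oxidase, -0.34 (adjusted p = 0.222) or -0.20 without untreated 3. Against the shift of all probes *Azin1* was at -0.03 and *Smox* at -0.06. The dimmest of the 3 *Azin1* probes fell by 0.76 (adjusted p = 0.0217), and the mean of its probes gave -0.49 (adjusted p = 0.0327, where all alternatives ran from 0.0327 to 1.00). *Sat2*, a relative of the polyamine acetyltransferase, rose by 1.19 (SE 0.18, adjusted p = 0.000734), and *Atp13a2*, a lysosomal polyamine exporter, by 0.70 (SE 0.16, adjusted p = 0.00796). *Atp13a2* did not pass with treat, at an adjusted p = 0.704 where all alternatives ran from 0.00125 to 0.704. *Sat1*, the acetyltransferase that starts polyamine breakdown, had 0.67 (SE 0.28, adjusted p = 0.0893). It passed with the replicate number as a block, at an adjusted p = 0.0422 where all alternatives ran from 0.0335 to 0.947, and untreated 2 stood apart here too, at 0.47 where the other untreated arrays read 1.52 to 1.58. Without untreated 2 the log2 fold change of *Sat1* was 0.41 (adjusted p = 0.141). *Slc12a8* fell by 2.36 (SE 0.18, adjusted p = 2.26e-05).

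Spermidine donates the group that forms hypusine on the translation factor eIF5A. Of the 4 genes of this step 3 fell, and 1 with quantile normalization. *Dohh*, which completes hypusine, fell by 1.62 (SE 0.17, adjusted p = 0.000103). *Dhps*, which transfers the group from spermidine, fell by 0.65 (adjusted p = 0.00663), and *Eif5a* itself by 0.69 (adjusted p = 0.00843). With quantile normalization *Dhps* was at -0.51 and *Eif5a* at -0.43, both under 1.5-fold, and *Dhps* was also under it without untreated 4, at -0.56, and with the mean of its probes, at -0.54. Its dimmer probe gave -0.43 (adjusted p = 0.109), and neither gene passed with treat. *Eif5a2*, the second eIF5A gene, had a log2 fold change of 0.06 (adjusted p = 0.719).

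The supply and recovery of the methyl donor split, with 2 of 13 genes rising, 4 falling and 7 not passing, and with 2 falling under quantile normalization. *Mat2a*, which makes S-adenosylmethionine, fell by 1.79 (SE 0.22, adjusted p = 0.000284). *Mtap*, which clears the methylthioadenosine that *Srm* and *Sms* release, rose by 1.23 (SE 0.14, adjusted p = 0.000149), whereas *Enoph1* and *Mri1*, later steps of the same salvage route, fell by 1.26 (SE 0.17, adjusted p = 0.000457) and 0.66 (SE 0.14, adjusted p = 0.00476). *Mri1* was under 1.5-fold with quantile normalization, at -0.57, and in the authors' processed values, at -0.54, and it did not pass with treat. *Ahcyl1*, which is related to S-adenosylhomocysteine hydrolase, rose by 1.43 (SE 0.14, adjusted p = 7.82e-05).

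**Figure D4:**
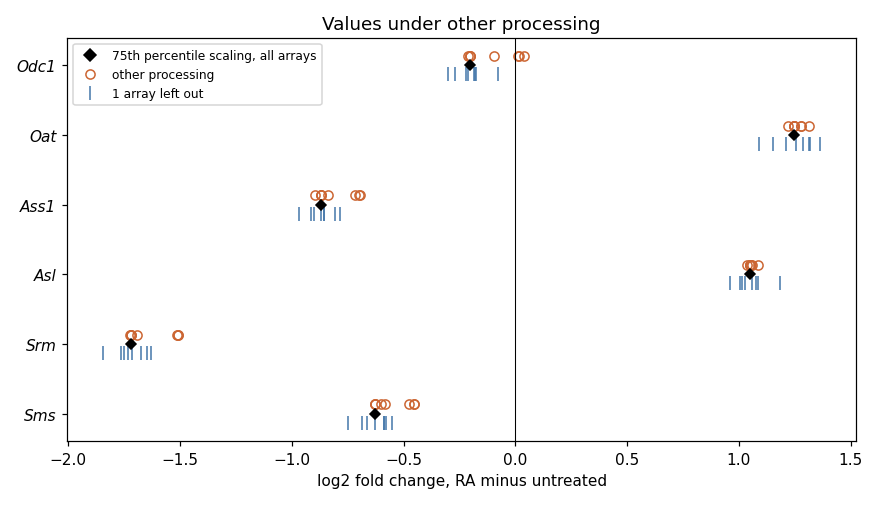
Log2 fold change (RA minus untreated) of the 6 genes under the scaling used in the text (diamonds), under other processing (circles) and with 1 array left out (ticks). *Odc1* is the only one that crosses 0.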

How the data were processed

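Total RNA of 4 untreated and 4 RA-treated cultures (72 h) was hybridized to 1-colour Agilent arrays. Files deposited by the authors are scanner tables from Agilent Feature Extraction (10.7.3.1), holding per spot a background-subtracted intensity, not normalized between arrays, with flags, and a table of processed log2 values whose background correction and normalization are not given in the sources used here. Direction was taken from the labels. Positions are on mm9, as in the scanner output.

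The log2 intensity minus the 75th percentile of each array's non-control spots was taken in R (version 4.3.3). The 3671 control spots and the outlier spots (124 to 145 per array) were left out, and spots of a probe were averaged. A gene takes its probe with the highest mean. Conditions were compared with limma (version 3.58.1) over all probes, without covariates, at an adjusted p under 0.05 and above 1.5-fold, the limits of the study's methods. A probe counts as well above background on an array where most of its spots carry that flag. The number of arrays limits the precision.

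The members and lists were chosen with earlier results of these data known. Named outside the members were, per list, at most 3 called genes in each direction with the largest change among genes well above background on at least 1 array, and genes that act directly beside a member. *Ahcyl2*, *Aldh4a1*, *Amd2*, *Asns*, *Ddah1*, *Ddah2*, *Eif5a2*, *Nos1*, *Prodh2*, *Slc25a2*, *Slc3a2*, *Slc7a2* and the genes nearest to *Srm* (Euclidean distance of centred values among genes well above background on at least 4 arrays) were added after their values were seen. Some members and listed genes are not reported here. Macrophage, hepatocyte, fibroblast, endoderm, neural, pluripotency and RA-response lists served as marker checks.

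Deviations of same-numbered arrays from their group mean correlated at 0.186, 0.189, 0.104 and 0.151 over 27491 probes, so the numbers in the labels may pair the cultures. The main fit ignores such a pairing, and the replicate block is given as an alternative. Of differently numbered arrays, untreated 1 with RA 4 (0.142) and untreated 4 with RA 3 (0.130) also correlated, above the 0.104 of pair 3. Arrays lie on 2 slides, each scanned once. The steps were tested on simulated data. Alternatives were the background correction, the scaling, the authors' values, a filter on dim probes, slide and replicate as blocks, the mean of all probes, limma's test against 1.5-fold (treat), and leaving out each array.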

Additional observations from a re-analysis of the deposited data

Results flagged for a closer look

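In 4 of 76 groups of 4 arrays examined 1 array stood apart from the other 3 by Dixon's test, where chance gives about 1 in 20 groups, or 3.8 here. *Odc1* read 5.50 in untreated replicate 2, against 5.75 to 5.77 in the others. In the same untreated replicate 2 *Prmt1* read 4.40, against 5.87 to 6.08, and *Sat1* read 0.47, against 1.52 to 1.58. *Slc7a7* read 2.89 in RA replicate 2, against 1.69 to 1.81. No explanation was tested for these readings.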

How the results depend on the processing

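Under all alternatives run, *Oat* and *Asl* stayed higher and *Ass1*, *Srm* and *Sms* stayed lower in mean after RA. Leaving out 1 array gave -0.30 to -0.08 for *Odc1*, 1.09 to 1.37 for *Oat*, -0.97 to -0.79 for *Ass1*, 0.96 to 1.18 for *Asl*, -1.84 to -1.63 for *Srm* and -0.75 to -0.55 for *Sms*. *Odc1* changed sign to 0.0389 (quantile), 0.0110 (normexp and quantile) and 0.0175 (authors' values), *Oaz1* to 0.219, 0.231 and 0.225 under the same 3 settings and, with 1 array left out, to between -0.198 and 0.0229, above 0 without untreated replicate 1 and without untreated replicate 4, and *Otc*, dim on all arrays, to 0.0470 and 0.0451 under normexp with quantile and in the authors' values. All alternatives kept the count of 2 members higher without overlap. Under quantile scaling with or without normexp, in the authors' values or with the mean of all probes 2 in place of 3 were lower without overlap.

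The neighbouring genes that rose and fell numbered 10 and 27, 11 and 20 with quantile normalization, 6 and 16 with treat (with 2 of 12 proline and glutamate genes falling), and 9 to 11 and 25 to 28 with 1 array left out. Over all gene names well above background on at least 1 array the counts of 4974 and 7590 became 5518 and 5820 with quantile normalization, and 3009 and 3745 with treat, and the genes that fell numbered 4807 with normexp and quantile normalization and 4794 in the authors' values. With 1 array left out they ranged from 4590 to 5059 and from 6702 to 7781. With the replicate block 11 neighbouring genes rose and 26 fell, and over those gene names 4995 and 7590. Of the 32 neighbouring genes named by the rule, the replicate block changed the calls of *Prmt1* and *Sat1*. Among the other listed genes it ended the calls of *Aldh4a1* (adjusted p = 0.0846) and *Ahcyl2* (0.0502). It gave calls to *Slc7a2* (0.00780), which rose, and *Slc25a2* (0.0174), which fell. The cause of these changes was not tested. Signal over background limits *Nags* and *Cps1*, which were not well above background on any RA array.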
